A study of Mus musculus with 4 samples.

Results

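Transthyretin (Ttr) and 8 further genes known for their strong expression in the choroid plexus were followed across 4 single-colour arrays of mouse RNA, labelled as coming from the dorsal raphe nucleus, the main serotonergic nucleus of the brainstem. The 9 genes are Ttr, Folr1, Kcne2, Clic6, Otx2, Aqp1, Kl, Cldn2 and Ecrg4, the last carried on the array under its older name 1500015O10Rik. They were taken by symbol from the probe table of the series, in which each has 1 probe, out of 16383 named genes, and they were proposed with earlier values of these arrays in view. The levels and folds below are therefore descriptions. The 4 groups were stressed mice lacking the dopamine D2 receptor (D2R-KO), stressed mice lacking only its long form (D2LR-KO), stressed wild-type mice (WT) and non-stressed WT mice. All groups were C57BL/6J males of 10 weeks, and each array carried RNA pooled from 5 mice. Stressed mice swam under force for 6 min daily over 4 days, and the nucleus was dissected 12 h after the final session. Both knockouts were measured only after stress, so the comparison of a knockout with non-stressed WT changes genotype and stress together. The making of the knockout alleles was not given in the sources used here. With 1 array of pooled RNA per group there is no replicate spread, so every difference is given without a test, and the small number of arrays sets the precision.

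The choroid plexus is a sheet of epithelium inside the brain ventricles that secretes cerebrospinal fluid. Its cells make and export transthyretin, a carrier of thyroid hormone and of the retinol-binding protein, and in the brain Ttr is a classic marker of this epithelium. The other genes serve the same cells in other ways. Folr1 is a folate receptor that carries folate into the fluid, Aqp1 a water channel of the apical membrane, Kcne2 an accessory subunit of potassium channels and Clic6 a member of the chloride intracellular channel family. Cldn2 is a pore-forming claudin of leaky tight junctions, Kl encodes klotho, a coreceptor for a fibroblast growth factor that is also shed into the fluid, Ecrg4 encodes a secreted peptide precursor, and Otx2 is a homeobox transcription factor needed to form the choroid plexus. The dorsal raphe lies under the cerebral aqueduct, which opens into the fourth ventricle.

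Ecrg4, Kcne2, Kl and Cldn2 were among the genes brighter on the non-stressed WT array than on all 3 stressed arrays. They have an entry in the sequence table, and their start regions are shown. Aqp1 meets both conditions too, but its region, with a GC content of 62.0%, is not printed. Each line gives the 250 bases before the annotated start in the direction of transcription, from RefSeq on GRCm38.p6. The regions are chr1:43730352-43730601 (+) for Ecrg4, chr16:92292139-92292388 (+) for Kcne2, chr5:150952357-150952606 (+) for Kl and chrX:139800558-139800807 (+) for Cldn2, with the strand in parentheses. Capitals mark a match to TATAAA, the letters of a TATA box.
Ecrg4: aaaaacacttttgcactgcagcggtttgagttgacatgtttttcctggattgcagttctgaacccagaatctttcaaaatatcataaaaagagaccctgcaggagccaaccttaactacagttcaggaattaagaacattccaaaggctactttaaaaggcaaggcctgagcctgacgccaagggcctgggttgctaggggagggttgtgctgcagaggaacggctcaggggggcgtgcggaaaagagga
Kcne2: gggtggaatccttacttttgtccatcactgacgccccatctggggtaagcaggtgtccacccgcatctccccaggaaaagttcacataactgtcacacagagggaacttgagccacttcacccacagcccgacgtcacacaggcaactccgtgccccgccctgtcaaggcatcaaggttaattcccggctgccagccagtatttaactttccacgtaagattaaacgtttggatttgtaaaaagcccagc
Kl: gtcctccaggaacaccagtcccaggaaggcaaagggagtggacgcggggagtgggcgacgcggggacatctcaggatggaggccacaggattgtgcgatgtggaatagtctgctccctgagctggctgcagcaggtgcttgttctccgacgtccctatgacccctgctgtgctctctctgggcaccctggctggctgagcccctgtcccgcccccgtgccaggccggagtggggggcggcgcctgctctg
Cldn2: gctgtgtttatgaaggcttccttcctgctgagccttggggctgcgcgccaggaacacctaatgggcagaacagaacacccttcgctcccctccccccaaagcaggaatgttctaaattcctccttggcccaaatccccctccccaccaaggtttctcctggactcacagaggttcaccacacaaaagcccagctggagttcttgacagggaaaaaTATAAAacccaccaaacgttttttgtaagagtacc
The GC content of these 4 regions was 48.4%, 52.4%, 66.8% and 52.0%, in the order printed, against a median of 52.4% over all 32851 start regions in the table. In all, 3 motifs were searched on both strands. TATAAA was found in 12.4% of all start regions, and among the 10 regions listed for the 9 genes it was in 2, that of Cldn2 with its first base at position -35 and 1 of Otx2 at position -192. TAATCC, the core bound by Otx2 and its relatives, was in 6.25% of all regions and in 1 of the 10, a further start of Otx2. GTAAACA, the core of forkhead factors, was in 3.17% of all and in 0 of the 10. No 2 matches overlapped. The 10 regions cover 6 of the 9 genes, and Ttr, Folr1 and Clic6 had no entry in the table used.

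Levels are given as the intensities that the authors deposited, which are on a linear scale with a median of 25 on every array. Folds were computed from the scanner values as differences of log2(signal + 50) after quantile normalization, which understates the differences of dim genes. A gene counts as 2-fold higher or lower when its log2 fold was at least 1 in size and its spot was above the detection limit of the blank spots on at least 1 of the 2 arrays. Repeated control spots gave an SD of the log2 difference between 2 arrays of 0.149 to 0.237, which covers spots and not mice or labellings. These controls were bright, with mean log2 signals of 11.9 to 13.7 before quantile normalization. The spread of dim spots was not measured, so 2 SD of the control spots is only a rough yardstick for dim genes. The stressed WT array stood apart from the other 3. Its correlation with them across 15875 genes was 0.957 to 0.965, against at least 0.99 among the others. The genes of serotonergic neurons, which define the labelled tissue, differed between arrays as well. Tph2, the neuronal tryptophan hydroxylase, read 264.6 in D2R-KO, 151.5 in D2LR-KO, 10.7 in stressed WT and 31.4 in non-stressed WT. Slc6a4, the serotonin transporter, read 89.6, 43.5, 6.8 and 11.6 on the same arrays. Drd2, the targeted gene, read 20.9 in D2R-KO, 48.3 in D2LR-KO, 43.8 in stressed WT and 26.8 in non-stressed WT, and whether its probe lies in a deleted part is not known here.

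Ttr was bright on both WT arrays and dim on both knockout arrays. Its deposited intensity was 20.3 in stressed D2R-KO, 193.1 in stressed D2LR-KO, 5720.2 in stressed WT and 12884.0 in non-stressed WT. Before any correction its spot read 74.6 in D2R-KO, against a detection limit of 39.5, and 328.7 in D2LR-KO, against 38.0. The spot read 9121 in stressed WT and 26445 in non-stressed WT, below the highest reading on those arrays (57525 and 57475). Ttr was thus above the detection limit on every array. Against non-stressed WT, Ttr was 273-fold lower in D2R-KO (log2 fold -8.09), 61.3-fold lower in D2LR-KO (-5.94) and 1.89-fold lower in stressed WT (-0.91). Against stressed WT it was 145-fold lower in D2R-KO and 32.5-fold lower in D2LR-KO. These 4 knockout folds were each the lowest among the 15574 to 15655 genes compared. D2LR-KO in turn was 4.45-fold higher than D2R-KO, the largest such difference among 15606 genes. Each of the 3 gaps in the order D2R-KO, D2LR-KO, stressed WT, non-stressed WT exceeded 2 SD of the control spots. The surroundings of the Ttr spot were also bright on the WT arrays, at 4113 in stressed WT and 14908 in non-stressed WT. With the background taken there, the log2 folds against non-stressed WT were -7.05 in D2R-KO, -5.28 in D2LR-KO and -0.68 in stressed WT. In pooled tissue, fewer cells of a type and less RNA per cell cannot be told apart.

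**Figure D1:**
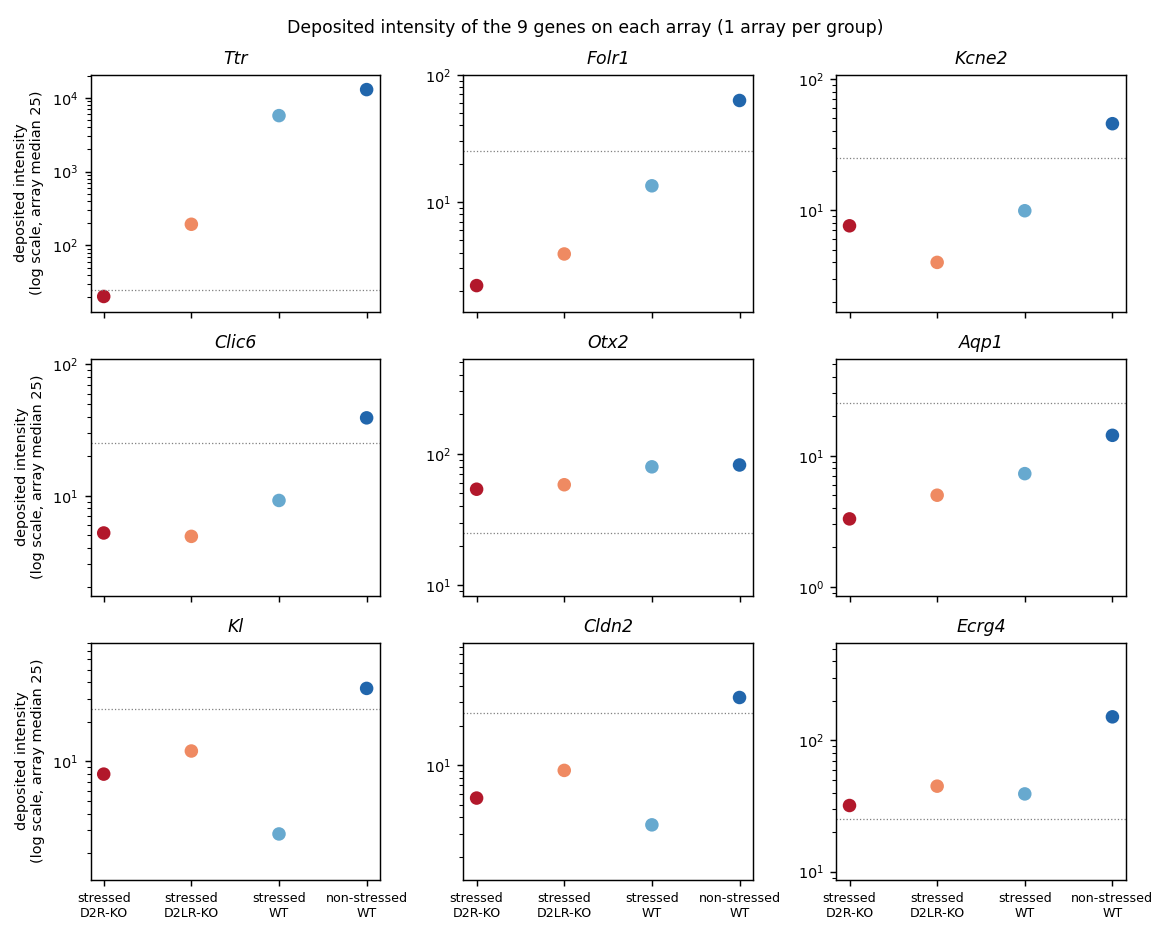
Deposited intensity (vertical axis, log scale, each panel with its own range) of Ttr and 8 choroid plexus genes on the stressed D2R-KO, stressed D2LR-KO, stressed WT and non-stressed WT arrays. Each point is 1 array of 5 pooled mice, and the dotted line is the array median of 25. Ttr is at 20.3 and 193.1 on the knockout arrays against 5720.2 and 12884.0 on the WT arrays, while Folr1, Kcne2, Clic6, Aqp1, Kl, Cldn2 and Ecrg4 are highest on the non-stressed WT array only.

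The transport genes were dim on the stressed WT array, where Ttr was bright. Folr1, the folate receptor, read 2.2 in D2R-KO, 3.9 in D2LR-KO, 13.4 in stressed WT and 62.8 in non-stressed WT. It was lower than non-stressed WT by 2.90-fold in D2R-KO, 2.75-fold in D2LR-KO and 2.18-fold in stressed WT. The non-stressed array stood above the other 3 by more than 2 SD of the control spots. Among the stressed arrays, D2R-KO was below stressed WT by more than that (log2 fold -0.41, against 2 SD of 0.297), while D2LR-KO was within 2 SD of both. Kcne2, which in this epithelium assists the potassium channel Kcnq1, read 7.6 in D2R-KO, 4.0 in D2LR-KO, 9.9 in stressed WT and 45.6 in non-stressed WT. Its folds against non-stressed WT were 2.02, 2.24 and 1.95 on the lower side in the same order. Clic6 read 5.2 in D2R-KO, 4.9 in D2LR-KO, 9.2 in stressed WT and 39.2 in non-stressed WT. Its 1.98-fold, 1.996-fold and 1.81-fold lower values fell just short of the 2-fold limit, which Kcne2 in D2R-KO just passed. For Kcne2 and Clic6, every pair of the 3 stressed arrays lay within 2 SD of the control spots, and each stressed array lay below non-stressed WT by more than that. Aqp1, the water channel, was dim on all arrays, with 3.3 in D2R-KO, 5.0 in D2LR-KO, 7.3 in stressed WT and 14.3 in non-stressed WT. Its log2 folds against non-stressed WT were -0.42, -0.34 and -0.29, of which the first, in D2R-KO, exceeded 2 SD of the control spots (0.334). The other pairs of arrays were within 2 SD.

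Among the junction, hormone and secreted factors, the lowest array for 2 genes was stressed WT. Kl, which encodes klotho, read 8.0 in D2R-KO, 12.0 in D2LR-KO, 2.8 in stressed WT and 36.0 in non-stressed WT. Cldn2, the claudin, read 5.6 in D2R-KO, 9.1 in D2LR-KO, 3.5 in stressed WT and 32.7 in non-stressed WT. Both were thus dimmer in stressed WT than in either knockout, the reverse of Ttr, although every pair of the 3 stressed arrays was within 2 SD of the control spots. Against non-stressed WT, Kl had log2 folds of -0.80 in D2R-KO, -0.65 in D2LR-KO and -1.05 in stressed WT, and Cldn2 had -0.82, -0.68 and -0.94. Ecrg4, the secreted peptide precursor, read 31.9 in D2R-KO, 44.8 in D2LR-KO, 39.1 in stressed WT and 151.2 in non-stressed WT. It was lower than non-stressed WT by 2.93-fold in D2R-KO, 2.41-fold in D2LR-KO and 2.54-fold in stressed WT, and every pair of its 3 stressed arrays was within 2 SD of the control spots. The surroundings of the Ecrg4 spot were bright on the non-stressed array (262.2, against a spot of 348.5), and with the background taken there its log2 folds shrank to -0.77, -0.35 and -0.39. Clic6 likewise had surroundings of 100.4 around a spot of 118.8 on that array, and its log2 folds became -0.38, -0.30 and -0.26. Kl had surroundings of 85.7 around a spot of 112.4 there, and its log2 folds became -0.36, -0.22 and -0.45. Those of Cldn2 became -0.56, -0.47 and -0.64.

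Otx2, the transcription factor, varied least after Aqp1. It read 53.8 in D2R-KO, 58.2 in D2LR-KO, 79.7 in stressed WT and 82.3 in non-stressed WT. Its order was that of Ttr in having both knockouts below both WT arrays, with log2 folds of -0.46 in D2R-KO and -0.35 in D2LR-KO against non-stressed WT and of -0.56 and -0.45 against stressed WT. Of these 4 differences, 3 exceeded 2 SD of the control spots of their own pair, those of D2R-KO against both WT arrays (0.334 and 0.297) and, narrowly, that of D2LR-KO against stressed WT (0.448). D2LR-KO against non-stressed WT was within 2 SD (0.474), and so were the 2 knockouts and the 2 WT arrays against each other. Stressed WT against non-stressed WT gave a log2 fold of 0.11, which turned to -0.16 with median scaling, -0.26 with the background around each spot and -0.04 from the deposited values.

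Set against non-stressed WT, stressed D2R-KO had 4 of the 9 genes at least 2-fold lower, namely Ttr, Folr1, Kcne2 and Ecrg4, and none higher. Over all genes 0.32% were at least 2-fold lower, 50 of 15607, and 0.115% higher. All 9 log2 folds were below 0, with a median of -0.98 against 0.01 for all genes compared, and 7 of 9 passed 1.5-fold on the lower side, against 1.49% of all genes. Without Ttr the median was -0.90. Because the genes were chosen with this contrast known, nothing is read from these shares. The count of 4 became 7 with a smaller offset of 16 in place of 50 or with the deposited values. With the background around each spot it became 3, and the split over all genes went from 50 lower and 18 higher to 259 and 532.

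Stressed D2LR-KO against non-stressed WT gave the same 4 genes at least 2-fold lower and none higher. The share over all genes was 0.308%, 48 of 15574, with 0.109% higher, and median scaling moved the array-wide split between lower and higher calls from 48 and 17 to 74 and 8. All 9 log2 folds were below 0 (median -0.997, against 0.00 for all genes), and 7 of 9 passed 1.5-fold against 1.41% of all genes. The count became 2, Ttr and Folr1, with the background around each spot and 7 with the offset of 16 or the deposited values. The 2 knockout comparisons share the non-stressed array, so their equal counts are not independent of each other.

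Stressed WT against non-stressed WT compared 2 arrays of 1 genotype, with and without forced swimming. It rests on the stressed WT array, the one that stood apart, so stress and array cannot be told apart. Folr1, Kl and Ecrg4 were at least 2-fold lower. Kcne2, at 1.95-fold, Cldn2, at 1.92-fold, Ttr, at 1.89-fold, and Clic6, at 1.81-fold, were just outside. The share of all genes at least 2-fold lower was 2.15%, 336 of 15643, with 229 (1.46%) higher. Median scaling changed that split to 893 lower and 30 higher, and the deposited values to 951 lower and 247 higher. Of the 9 genes, 8 had log2 folds below 0 (median -0.94, against 0.00 for all genes; 7 of 9 past 1.5-fold on the lower side, against 8.12% of all genes). Ttr passed the limit with median scaling (-1.39) and from the deposited values (-1.17). With the background around each spot only Folr1 remained past 2-fold, and with the offset of 16 there were 6 genes.

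Among stressed mice, Ttr alone of the 9 genes differed by 2-fold. In D2R-KO against stressed WT the share of all genes at least 2-fold lower was 2.57%, 403 of 15655, with 425 (2.71%) higher. Median scaling turned that split to 49 lower and 1128 higher, and the deposited values to 259 lower and 1406 higher. In D2LR-KO against stressed WT it was 1.83%, 286 of 15640, with 409 (2.62%) higher, which became 74 and 619 with median scaling and 227 and 1074 from the deposited values. These comparisons share the stressed WT array, the one that stood apart. Beside Ttr, the other 8 genes lay between -0.56 (Otx2) and 0.24 (Kl) in D2R-KO against stressed WT, and between -0.45 (Otx2) and 0.40 (Kl) in D2LR-KO against stressed WT. The medians of the 9 genes were -0.14 in both. D2LR-KO against D2R-KO had Ttr 2-fold higher, against 0.147% of 15606 genes, and 0 of 9 lower, against 0.0513%. The split of 8 lower and 23 higher over all genes became 13 and 11 with median scaling. There the other 8 genes stayed within -0.16 (Kcne2) and 0.28 (Ecrg4).

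**Figure D2:**
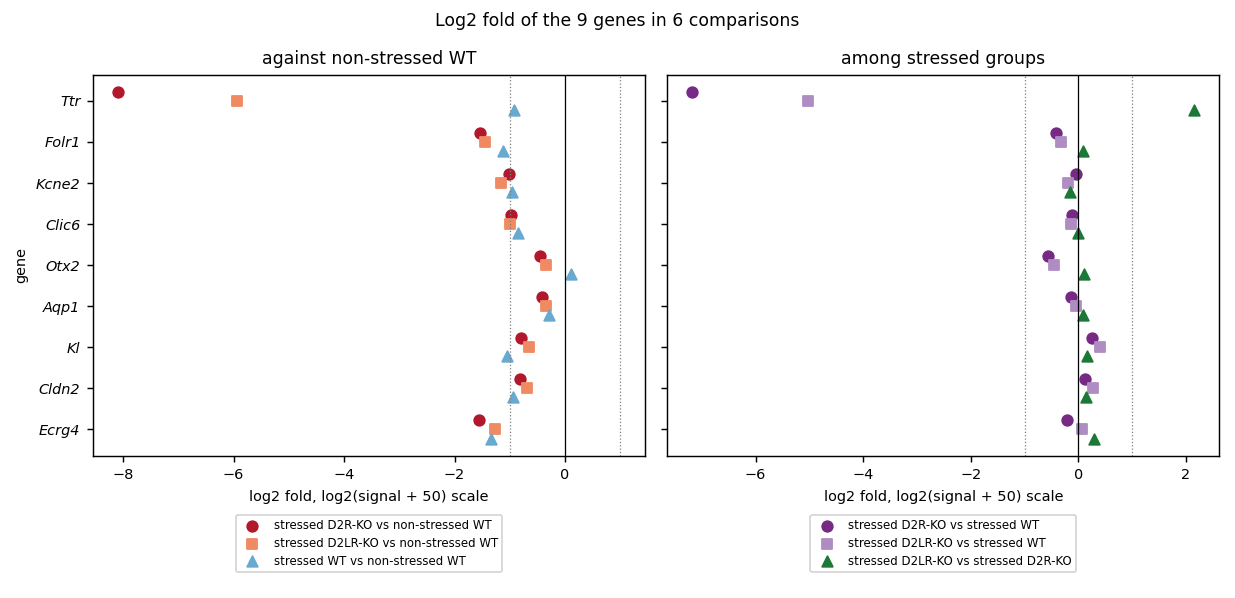
Log2 fold (horizontal axis, log2(signal + 50) scale) of each of the 9 genes in the 3 comparisons against non-stressed WT (left) and the 3 among stressed groups (right). Each symbol is 1 comparison of 2 arrays, and dotted lines mark 2-fold. Against non-stressed WT nearly all symbols lie left of 0, and among stressed groups only Ttr lies outside the dotted lines.

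Further genes of the choroid plexus epithelium were read from a separate list, of which 22 of 30 were on the array. At least 2-fold lower against non-stressed WT were 1 of 22 in D2R-KO, 1 of 22 in D2LR-KO and 1 of 22 in stressed WT, and none were higher. Over all genes 0.32%, 0.308% and 2.15% were 2-fold lower in the same order, so nothing is read from single genes. The list medians were -0.19, -0.08 and -0.22, with 18, 14 and 19 of 22 log2 folds below 0. Calml4, a calmodulin-like gene, was the one lower in both knockouts, with 2.9 in D2R-KO, 2.4 in D2LR-KO, 10.0 in stressed WT and 43.5 in non-stressed WT. Enpp2, which encodes the lysophospholipase autotaxin and is also made by oligodendrocytes, was the one lower in stressed WT (log2 fold -1.12), with 853.8 there against 2368.9 in non-stressed WT. In the knockouts Enpp2 read 2171.6 in D2R-KO and 1812.3 in D2LR-KO, with log2 folds of -0.33 and -0.47 against non-stressed WT. Unlike Ttr, it was thus brighter in both knockouts than in stressed WT. Car12, a carbonic anhydrase, and Sostdc1, a secreted inhibitor of bone morphogenetic protein and Wnt signals, are named after their values were seen. Car12 read 3.6 in D2R-KO, 9.4 in D2LR-KO, 11.5 in stressed WT and 32 in non-stressed WT, and Sostdc1 read 18.5, 14.2, 14.4 and 54.3. Both had the highest reading on the non-stressed array, like Folr1 and Ecrg4, but short of 2-fold in log2(signal + 50). Other genes of the list were not highest there. Cox8b and Htr2c, also named after their values were seen, read 66.2 and 54.9 in D2R-KO against 33.1 and 38.8 in non-stressed WT. Against stressed WT, none of the 22 was 2-fold lower in either knockout, and Slc22a8, an organic anion transporter also made by meningeal and endothelial cells, was higher in D2LR-KO (1.22). Igfbp2, an insulin-like growth factor binding protein, was higher in D2LR-KO than in D2R-KO (1.02), with 680.1 against 342.1.

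Genes of fluid secretion and channel, receptor or junction partners of the 9 genes showed no 2-fold difference against non-stressed WT. Of 15 such genes on the array, 0 were lower and 0 higher in D2R-KO, in D2LR-KO and in stressed WT, with list medians of 0.09, 0.04 and -0.23. Over all genes 0.32%, 0.308% and 2.15% were 2-fold lower and 0.115%, 0.109% and 1.46% higher. The 15 genes include 2 named after their values were seen. Kcnq1, the channel partner of Kcne2, read 1.6 in D2R-KO, 3.2 in D2LR-KO, 3.0 in stressed WT and 2.3 in non-stressed WT. Slc46a1, a proton-coupled folate transporter, read 63.8, 43.0, 38.3 and 52.9. Most of this list is shared with other brain cells. Slc4a2, an anion exchanger, was the one past 2-fold against stressed WT, higher in D2R-KO (1.03).

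The cargo side of transthyretin was followed through 14 genes of thyroid hormone and retinol handling, 13 of them above the detection limit. Against non-stressed WT, 1 of 13 was 2-fold lower in D2R-KO and none higher, 1 lower and 1 higher in D2LR-KO, and 1 lower and none higher in stressed WT. This list holds genes already seen to differ on these arrays, so nothing is read from these counts. The shares over all genes were 0.32%, 0.308% and 2.15% lower and 0.115%, 0.109% and 1.46% higher, in the same order. Crym, a cytosolic thyroid hormone-binding protein also typical of forebrain neurons, read 186.6 in D2R-KO, 440.9 in D2LR-KO, 857.5 in stressed WT and 1128.1 in non-stressed WT. Like Ttr it was low in the knockouts and high on both WT arrays, with log2 folds of -2.52 and -1.32 against non-stressed WT. Crabp2, a retinoic acid-binding protein of meningeal fibroblasts among other cells, read 94.3 in D2R-KO, 300.8 in D2LR-KO, 14.7 in stressed WT and 113.9 in non-stressed WT. It was the lower gene in stressed WT (-1.71) and the higher one in D2LR-KO (1.17). Against stressed WT, Thra, the main thyroid hormone receptor of brain, had log2 folds of -1.12 in D2R-KO and -1.04 in D2LR-KO. Rbp4, the retinol-binding protein that travels with transthyretin, read 55.5 in D2R-KO, 109.8 in D2LR-KO, 13.3 in stressed WT and 47.8 in non-stressed WT. It was higher than stressed WT in D2LR-KO (1.73) and thus ran opposite to Ttr there. Rbp4 was not alone in this, since Crabp2 was higher by 2.88 in the same comparison. Of 12 meningeal and fibroblast genes, 9 were at least 2-fold higher there, against 2.62% of all genes.

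**Figure D3:**
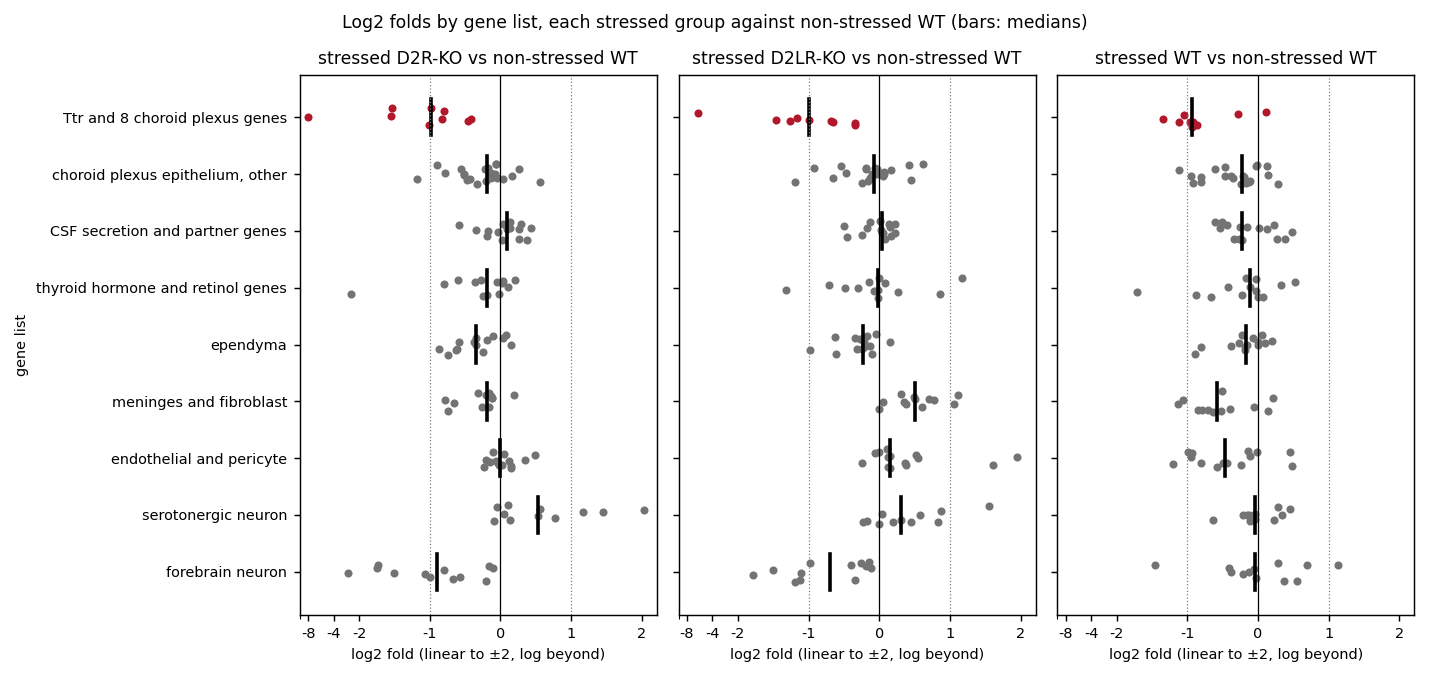
Log2 fold (horizontal axis, linear to 2 and logarithmic beyond) of each measured gene, grouped by list (vertical axis), for stressed D2R-KO, stressed D2LR-KO and stressed WT against non-stressed WT. Each point is a gene, bars are list medians and dotted lines mark 2-fold. The genes of all lists were chosen with earlier results of these data known. The medians of the 9 genes (-0.98, -0.997 and -0.94) lie left of those of the other choroid plexus genes (-0.19, -0.08 and -0.22), and the forebrain neuron list is shifted in the knockouts (-0.90 and -0.69) and not in stressed WT (-0.05).

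Markers of other cells were read beside these values. Of 14 ependyma genes, which line the ventricles next to the choroid plexus, none differed 2-fold against non-stressed WT on any array, and their summed deposited intensity was 360.8 in D2R-KO, 410.5 in D2LR-KO, 422.4 in stressed WT and 579.2 in non-stressed WT. The list medians were -0.35, -0.23 and -0.17, so ependyma genes also leaned lower. Meningeal and fibroblast genes, 12 on the array, differed by array, with summed intensities of 1037.7 in D2R-KO, 2680.2 in D2LR-KO, 772.3 in stressed WT and 1444.2 in non-stressed WT. Against non-stressed WT, 2 of 12 were 2-fold lower in stressed WT (Ogn at -1.13 and Slc6a13 at -1.07) and 2 higher in D2LR-KO (Ogn at 1.11 and Igf2 at 1.05), so their highest array was not that of the choroid plexus genes. The meningeal list medians were -0.19 in D2R-KO, 0.50 in D2LR-KO and -0.59 in stressed WT. In stressed WT 10 of 12 were below 0, a lean shared with 8 of the 9 genes. Forebrain neuron genes, 12 on the array, summed to 2858.4 in D2R-KO, 2884.2 in D2LR-KO, 7713.2 in stressed WT and 6753.6 in non-stressed WT, high on both WT arrays as Ttr was. Against non-stressed WT, 5 of 12 were 2-fold lower in D2R-KO, among them Itpka at -2.72, and 5 of 12 in D2LR-KO, among them Hpca at -1.79, with none higher in either. In stressed WT, Icam5 at -1.46 was lower and Nrgn at 1.12 higher. Serotonergic neuron genes ran the other way, with 3 of 11 at least 2-fold higher in D2R-KO and 1 of 11 in D2LR-KO, none lower, and none passed in stressed WT (list medians 0.54, 0.31 and -0.05). Over all genes, 0.32% were 2-fold lower and 0.115% higher in D2R-KO, 0.308% and 0.109% in D2LR-KO, and 2.15% and 1.46% in stressed WT. The forebrain and serotonergic lists hold genes already seen to differ on these arrays, so nothing is read from their counts. Of 14 genes in the endothelial and pericyte list, none passed 2-fold in D2R-KO (list medians -0.00, 0.16 and -0.47). Acta2 at 1.94 and Tagln at 1.62 were higher in D2LR-KO, and Tagln at -1.20 was lower in stressed WT. Both are contractile genes typical of smooth muscle, and no other gene of this list passed against non-stressed WT. On every array, all but at most 1 gene of each list were above the detection limit. The part of tissue composition in the levels of Ttr and the other choroid plexus genes was not tested.

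The genes whose profile over the 4 arrays was most like the median profile of the 9 genes were sought among 1108 genes with a range of at least 1 on the log2 scale. The 8 most alike were Ak5, Rbbp4, Ch25h, Cxcl1, Calml4, Ddit4, Rasl11a and Lcn2, with Pearson r of 0.977 to 0.998 over 4 arrays that share 1 normalization. In all, 21 of the 1108 had r above 0.9. Ch25h, cholesterol 25-hydroxylase, read 11.1 in D2R-KO, 11 in D2LR-KO, 12.3 in stressed WT and 130.4 in non-stressed WT. Ddit4, a stress-induced inhibitor of mTOR signalling, read 90.0, 68.8, 94.4 and 442.1 on the same arrays. Calml4 was the only one of the 8 in the list of further choroid plexus genes. The median profile itself, as log2 distance from each gene's mean, was -0.27 in D2R-KO, -0.23 in D2LR-KO, -0.15 in stressed WT and 0.71 in non-stressed WT. Ttr followed it with r = 0.72 and Otx2 with r = 0.52, against 0.90 to 0.998 for the other 7 genes. Each of the 9 genes enters this median, so these r values are in part built in.

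Position on the chromosome was compared as a property that the choice of genes did not use. Kcne2 and Clic6 lie near each other on chromosome 16 with 5 protein-coding genes between them in RefSeq order, 4 of which were on the array. Their log2 folds against non-stressed WT lay between -0.14 and 0.04 in both knockouts. In stressed WT they were wider, at -0.80 for Smim11, next to Kcne2, 0.08 for Fam243, 0.13 for Kcne1 and 0.34 for Rcan1, where Kcne2 and Clic6 had -0.96 and -0.86. These genes are named after their values were seen. Kcne1, the neighbour and relative of Kcne2, read 2.8 in D2R-KO, 2.6 in D2LR-KO, 5.9 in stressed WT and 2.2 in non-stressed WT, and Rcan1, a calcineurin regulator, read 215.2, 191.8, 224.7 and 213.0. Across all 9 genes, the nearest detected gene on each side gave 18 neighbours. Against non-stressed WT, 0 of 18 were 2-fold lower in D2R-KO and 0 of 18 in D2LR-KO, with median log2 folds of -0.02 and -0.04. In stressed WT 1 of 18 was, Exoc5 beside Otx2 at -1.11. Over all genes 0.32%, 0.308% and 2.15% were 2-fold lower in the same order, so nothing is read from these neighbour counts. Folr2, the paralogue next to Folr1, also named after its value was seen, had log2 folds of -0.22 in D2R-KO, -0.16 in D2LR-KO and 0.52 in stressed WT.

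**Figure D4:**
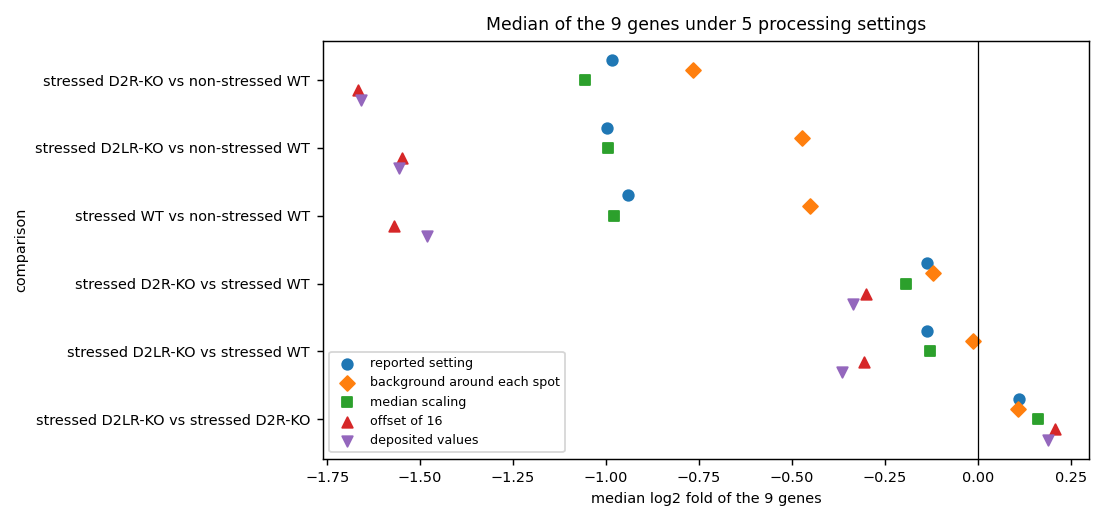
Median log2 fold of the 9 genes (horizontal axis) in each of the 6 comparisons (vertical axis) under the reported setting and 4 other settings. Each symbol is 1 setting. The 3 medians against non-stressed WT stay below 0 in every setting shown, from -1.67 to -0.45, while the 3 among stressed groups stay between -0.37 and 0.21.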

How the data were processed

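RNA was extracted with a Qiagen kit, amplified as amino allyl aRNA, labelled with Cy5 and hybridised to Toray arrays, per the labels' protocols. Each spot intensity is the median at 635 nm, combined from 3 scans and not background-subtracted, per the file headers. The authors' deposited table holds linear intensity with a median of 25 per array, and from the values it is the spot minus 1 constant, divided by 1 factor per array, with further steps not given in the sources used here. Here, the 2736 blank spots served as negative controls for normexp (function nec, limma 3.58.1, R 4.3.3; offset 50), followed by log2 and quantile normalization over the 4 arrays. Detection was a spot above the mean plus 2 SD of blank spots (38.0 to 40.3), passed by 91.0% to 91.6% of 23473 gene probes. Symbols came from the series' probe table (16631 probes with 1 symbol, 6842 with none here) and older ones were updated through RefSeq. Of several probes of a gene the brightest was used, and the 9 marked as not usable were dropped. Python 3.11.15, numpy 2.4.6 and pandas 2.3.3 did the rest.

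The 6 comparisons are differences between single arrays, so there is no test. The normalization and fold computation were checked on simulated arrays with known folds of 4. Recovery of smaller folds, such as those of the members other than Ttr, was not tested. The members, the gene lists and the rules were chosen with earlier results of these data known, and the forebrain, serotonergic and thyroid hormone lists hold genes already seen to differ. All 9 genes are named, of other lists up to 4 genes per comparison that differ 2-fold, and the 8 genes most like the median profile, with exceptions marked in the text. Alternatives were the background around each spot, median scaling, an offset of 16, the deposited values as log2(value + 10) with missing values as 0, another detection limit of 3 SD and none.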

Additional observations from a re-analysis of the deposited data

How the results depend on the processing

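All 14 folds of the 9 genes that reached 2-fold kept their direction under all 6 alternatives, and 9 of the 14 stayed past 2-fold where the background came from around each spot. Of all 54 folds, the direction was kept in 50 with background from around each spot, 52 with median scaling, 53 from the deposited values and 54 with the other alternatives. Against non-stressed WT, the medians in D2R-KO, D2LR-KO and stressed WT (-0.98, -0.997 and -0.94) became -0.77, -0.47 and -0.45 with this background, -1.67, -1.55 and -1.57 with the offset of 16, then -1.66, -1.56 and -1.48 from the deposited values. The counts at least 2-fold lower (4, 4 and 3) became 3, 2 and 1, then 7, 7 and 6, then 7, 7 and 7. Against stressed WT, the median in D2R-KO (-0.14) became -0.30 with the offset of 16 and -0.34 from the deposited values, and that in D2LR-KO (-0.14) became -0.37 from the deposited values. Medians without Ttr, added after seeing the data, moved by less than the spread of control spots. Detection limits changed no value of the 9 genes. Over all genes, lower and higher 2-fold counts in the 6 comparisons, in the order of the report, were 50 and 18, 48 and 17, 336 and 229, 403 and 425, 286 and 409, and 8 and 23. They became 259 and 532, 134 and 496, 576 and 749, 345 and 379, 306 and 356, and 63 and 105 with background from around each spot, 56 and 19, 74 and 8, 893 and 30, 49 and 1128, 74 and 619, and 13 and 11 with median scaling, 104 and 28, 85 and 35, 695 and 488, 696 and 810, 570 and 781, and 13 and 45 with the offset of 16, and 86 and 39, 85 and 36, 951 and 247, 259 and 1406, 227 and 1074, and 15 and 39 from the deposited values. The cause of these shifts was not tested, except that a smaller offset enlarges folds of dim genes by construction. No paired analysis was possible because each group has 1 array, and no array could be left out. Folr1, Kcne2, Clic6, Aqp1, Kl and Cldn2 lay close to the detection limit on the stressed arrays, at 1.07 to 1.49 times it, which limits their folds.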

Other observations

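Ttr was high on both WT arrays, and of the other 8 genes Otx2 had the profile most like it (r = 0.96 over 4 arrays). The further genes most like Ttr were also listed, a step chosen after its values were seen. Among the same 1108 genes the 6 with the highest Pearson r with Ttr over the 4 arrays were Camkv, Tac2, Cck, Pmch, Dlx1 and Ccnd2 (r = 0.986 to 0.998), and 47 genes had r above 0.9. Cck, a neuropeptide abundant in cortex, read 872.7 in D2R-KO, 1151.6 in D2LR-KO, 1393.0 in stressed WT and 2000.2 in non-stressed WT. Dlx1, a homeobox gene of forebrain interneurons, read 13.5, 21.1, 69.9 and 116.0, and Pmch, the precursor of melanin-concentrating hormone made in the hypothalamus, read 24.2, 36.5, 73.4 and 79.8. Tac2, a tachykinin precursor, read 6.5, 12.6, 50.6 and 71.4. None of the 6 is a gene of the choroid plexus lists used here, and none had a range near that of Ttr, 1.07 to 1.73 on the log2 scale against 8.09.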
